A study of Mus musculus with 4 samples.

Results

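Calponins, transgelins and leiomodin 1 are actin-binding proteins best known from smooth muscle, and serum response factor (SRF) with its cofactors Mkl1 and Mkl2 controls many genes of the actin cytoskeleton. The 9 genes described here are Cnn1, Cnn2, Cnn3, Tagln, Tagln2, Lmod1, Srf, Mkl1 and Mkl2. They were chosen by symbol, with their FPKM in these same libraries already known, and each was found once in all 4 expression tables, among 24850 named entries in the total RNA tables and 24992 in the polyA tables. Their changes are therefore a description of these libraries.

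The study examined enhancer RNAs and the RNA-binding protein hnRNPL in C2C12, a mouse myoblast line that leaves the cell cycle and fuses into myotubes when serum is lowered. Total RNA depleted of ribosomal RNA was sequenced from C2C12 myoblasts (MB) at -24 h relative to differentiation medium (DM) and from myotubes (MT) at DM 72 h. The MT time is that of the labels, and a supplementary legend of the paper gives another for an RNA-seq comparison of MT with MB. PolyA RNA was sequenced from C2C12 cells at DM 48 h that carried siRNA against hnRNPL (si-hnRNPL) or a control siRNA (si-NC). All 4 libraries came from 1 cell line, with 1 library per condition, so differences could not be checked against replicates and p-values were not computed.

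Actin in its monomeric form holds Mkl1 and Mkl2 (also called MRTF-A and MRTF-B) in the cytoplasm, and polymerisation of actin frees them to bind SRF in the nucleus. SRF recognises a short sequence, the CArG box, in front of cytoskeletal and muscle genes, and can instead pair with ternary complex factors at immediate early genes. Calponins and transgelins bind along actin filaments, whereas leiomodins start new filaments, and several of these genes serve as markers of smooth muscle although myoblasts and fibroblasts express them too.

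Promoters of the members were read from RefSeq (GRCm38.p6), as windows from 250 bases before to 50 bases after each annotated start, on the strand of the gene. A promoter was found for 8 of the 9 members, with 11 windows in all; Tagln had no entry. The CArG box (CC, then 6 bases that are each A or T, then GG), whose pattern is the same on both strands, was searched in every window. It was present in 2 of the 11 windows, those of Srf and Cnn2, against 1.63% of all 32851 promoters in the table. The Srf window (chr17:46556113-46556412, minus strand) held 2 boxes, which began 82 and 62 bases before the start. The Cnn2 window (chr10:79988350-79988649, plus strand) held 1 box, which began 56 bases before the start. These windows are shown with the box in capitals, and that of Cnn1 (chr9:22099003-22099302, plus strand) is shown because Cnn1 had the lowest MT over MB change of the members and no box in this window:
Srf: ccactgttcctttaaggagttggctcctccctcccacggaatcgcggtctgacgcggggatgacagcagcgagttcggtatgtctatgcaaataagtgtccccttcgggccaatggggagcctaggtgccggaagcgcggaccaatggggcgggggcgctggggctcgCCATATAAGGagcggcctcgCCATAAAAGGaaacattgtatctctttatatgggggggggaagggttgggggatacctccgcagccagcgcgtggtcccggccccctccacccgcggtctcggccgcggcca
Cnn2: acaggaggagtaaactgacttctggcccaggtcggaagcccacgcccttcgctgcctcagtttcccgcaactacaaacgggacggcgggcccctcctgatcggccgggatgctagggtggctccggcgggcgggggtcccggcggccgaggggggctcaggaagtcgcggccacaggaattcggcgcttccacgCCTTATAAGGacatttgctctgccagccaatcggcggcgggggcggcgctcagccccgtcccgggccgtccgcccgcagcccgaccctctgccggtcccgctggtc
Cnn1: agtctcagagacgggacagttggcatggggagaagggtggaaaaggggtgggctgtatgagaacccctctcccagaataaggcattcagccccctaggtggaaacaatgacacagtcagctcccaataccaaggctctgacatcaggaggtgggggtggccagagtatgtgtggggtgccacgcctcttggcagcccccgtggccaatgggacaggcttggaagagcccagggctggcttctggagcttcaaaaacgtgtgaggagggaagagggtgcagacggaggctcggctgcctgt
No match means only that these letters are not in the window. Outside the members, the box was found for 5 of 17 cytoskeletal SRF targets with an entry (Actg1, Vcl, Myl9, Fhl1 and Fhl2), a list made of known SRF targets. In the other gene lists used below it was found only for the immediate early target Egr2 and the skeletal muscle marker Acta1.

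Expression was measured as FPKM, a fragment number scaled to transcript length and to the mapped fragments of the library, so levels of different genes can be compared within a library. The range after each FPKM is the 95% interval deposited with it, which comes from 1 library and does not measure variation between cultures. Changes are log2 ratios of FPKM + 1, a scale on which changes of weakly expressed genes come out too small, and a gene was counted as higher or lower at an absolute log2 change of 0.58 or more. The total RNA tables gave a median log2 change of -0.23 over 10739 named genes that reached 1 FPKM in MB and in MT. The MT over MB change of each member is therefore also given relative to that median. For other genes it is given so only where stated. In the polyA tables the median was -0.01. For Hnrnpl, the targeted gene, si-NC gave 95.1 FPKM (92.7 to 97.5) while si-hnRNPL gave 85.9 FPKM (83.1 to 88.7), a log2 change of -0.14. This is within the threshold, and 23.5% of named genes had a lower change. The paper examined the knockdown by Western blot, a protein measure that these libraries do not hold.

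Of the 9 members, 6 were lower in MT than in MB (Cnn1, Cnn2, Tagln, Tagln2, Srf and Mkl1), 0 were higher and 3 were within the threshold. Among all 11758 named genes that reached 1 FPKM in either library, 28.5% were lower and 15.4% were higher. The members had a median log2 change of -0.94 against -0.20 for all of these genes. In si-hnRNPL over si-NC, 1 member (Lmod1) was higher, 0 were lower and 8 were within the threshold, where 1.44% of 11369 named genes were higher and 0.888% were lower. Nothing about the members is read from these counts, since they were selected on the same values.

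**Figure D1:**
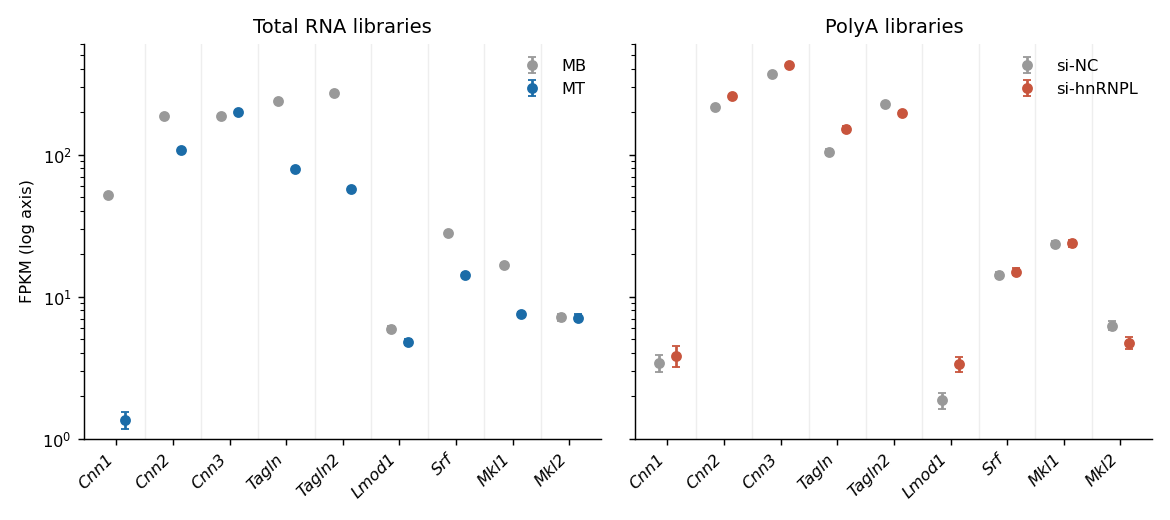
FPKM of the 9 members on a log axis, in the total RNA libraries (left, MB grey and MT blue) and in the polyA libraries (right, si-NC grey and si-hnRNPL red); bars are the 95% intervals deposited with the values and are often smaller than the point. Cnn1 is at 51.9 FPKM in MB and 1.35 FPKM in MT, while Cnn3 and Mkl2 lie close together in MB and MT.

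The calponins bind actin and tropomyosin and restrain actomyosin, and Cnn1 is the isoform regarded as typical of smooth muscle. Cnn1 (mm9 chromosome 9, 21903697 to 21913665, plus strand) had 51.9 FPKM (50.7 to 53.1) in MB and 1.35 FPKM (1.17 to 1.54) in MT. Its FPKM was 38.3-fold lower in MT, a log2 change of -4.49 (-4.61 to -4.37) and -4.26 relative to the median gene. It stood above 85.5% of the expressed genes in MB but above only 3.25% in MT, and its change was the number 15 from the lowest among the 11758 genes. In the polyA libraries Cnn1 was low on both sides, with 3.43 FPKM (2.95 to 3.90) in si-NC and 3.84 FPKM (3.22 to 4.46) in si-hnRNPL. The log2 change was 0.13 with an interval from -0.11 to 0.37, which includes 0.

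Cnn2, a calponin of non-muscle and smooth muscle cells (chromosome 10, 79451345 to 79458145, plus strand), had 187 FPKM (185 to 190) in MB and 107 FPKM (106 to 109) in MT. The log2 change was -0.80 (-0.83 to -0.77), and relative to the median gene it was -0.57, which is within the threshold. Cnn2 had 217 FPKM (213 to 221) in si-NC and 258 FPKM (252 to 263) in si-hnRNPL, a log2 change of 0.24 (0.20 to 0.29). The promoter with a CArG box shown above is that of this gene.

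Cnn3, the acidic calponin (chromosome 3, 121129459 to 121161123, plus strand), had 187 FPKM (184 to 189) in MB and 200.1 FPKM (198 to 202) in MT. Its log2 change of 0.10 (0.08 to 0.12) and of 0.33 relative to the median gene set it apart from Cnn1 and Cnn2, both of which were lower in MT. In the polyA libraries it was the most abundant member, with 367 FPKM (362 to 372) in si-NC and 424 FPKM (417 to 431) in si-hnRNPL and a log2 change of 0.21 (0.18 to 0.24).

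Shares within the family do not depend on how a library is scaled. Of the summed calponin FPKM, Cnn1 made up 12.2% in MB and 0.439% in MT, while Cnn3 went from 43.8% to 64.8% and Cnn2 from 44.0% to 34.8%. Cnn3 and Cnn2 had equal levels in MB, with a ratio of 0.997 (0.979 to 1.01), and Cnn3 was 1.86 times Cnn2 (1.83 to 1.90) in MT. The polyA libraries at DM 48 h, whose preparation differs, had the order seen in MT, with Cnn3 at 62.4% and 61.9% and Cnn1 at 0.583% and 0.560% of the sum in si-NC and si-hnRNPL.

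**Figure D2:**
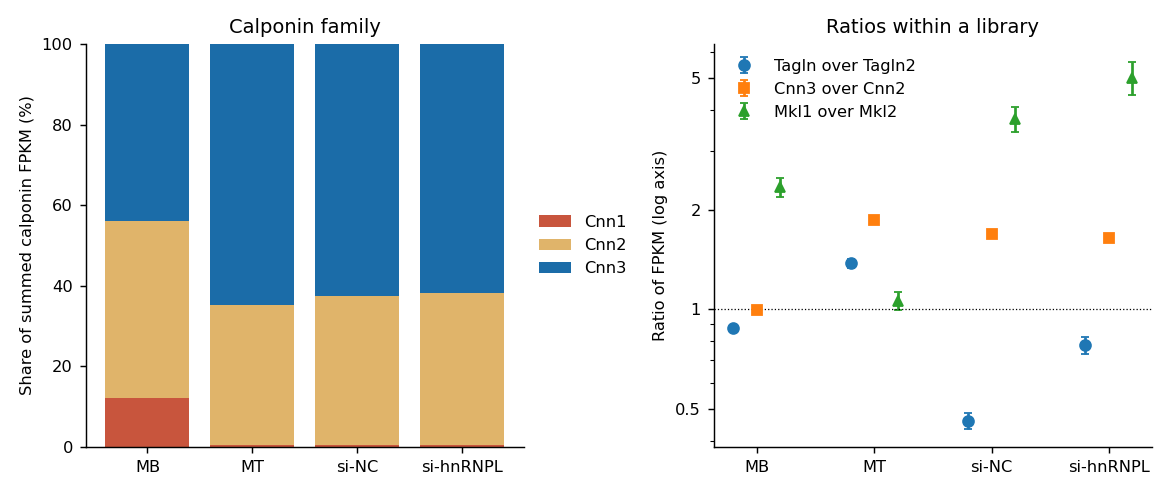
Left, share of each calponin in the summed FPKM of Cnn1, Cnn2 and Cnn3 in the 4 libraries (percent); right, ratios of FPKM between paired members in each library on a log axis, with intervals from the deposited intervals of both genes. Cnn1 takes 12.2% of the sum in MB and under 1% elsewhere, and Tagln over Tagln2 passes from 0.875 in MB to 1.38 in MT.

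Transgelin (Tagln, also called SM22) and transgelin 2 (Tagln2) cross-link and stabilise actin filaments, and Tagln is an early marker of smooth muscle. Tagln (chromosome 9, 45737711 to 45744141, minus strand) had 239 FPKM (236 to 241) in MB and 78.6 FPKM (77.0 to 80.2) in MT. The log2 change was -1.59 (-1.62 to -1.56) and -1.36 relative to the median gene. Its annotated end overlaps that of Pcsk7 on the other strand, and the strand setting of the counting is not given in the sources used here.

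Tagln2, the transgelin of non-muscle cells (chromosome 1, 174430377 to 174437506, plus strand), was the most abundant member in MB, with 273 FPKM (270 to 276). In MT it had 57.1 FPKM (55.6 to 58.6), a log2 change of -2.24 (-2.28 to -2.20) and -2.01 relative to the median gene. Both transgelins were thus lower in MT under each scaling that was tried, and their ratio turned over. Tagln was 0.875 times Tagln2 (0.860 to 0.890) in MB and 1.38 times Tagln2 (1.33 to 1.42) in MT.

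Between the siRNA libraries the changes of the transgelins had opposite signs, neither of them past the threshold, and their levels were closer to each other in si-hnRNPL. Tagln had 104 FPKM (98.5 to 109) in si-NC and 152 FPKM (144 to 160) in si-hnRNPL, a log2 change of 0.55 (0.45 to 0.65), just short of the threshold of 0.58. Tagln2 had 225 FPKM (221 to 230) in si-NC and 195 FPKM (190 to 201) in si-hnRNPL, a log2 change of -0.20 (-0.26 to -0.15). Tagln was 0.460 times Tagln2 (0.435 to 0.486) in si-NC and 0.778 times Tagln2 (0.733 to 0.824) in si-hnRNPL, and these intervals do not overlap.

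Leiomodin 1 (Lmod1; chromosome 1, 137221390 to 137264642, plus strand), the leiomodin of smooth muscle, was low in all 4 libraries. It had 5.95 FPKM (5.68 to 6.23) in MB and 4.83 FPKM (4.58 to 5.07) in MT. The log2 change of -0.26 (-0.34 to -0.17) was -0.03 relative to the median gene and turned to 0.05 with upper-quartile scaling. In si-NC Lmod1 had 1.87 FPKM (1.63 to 2.11), and in si-hnRNPL it had 3.37 FPKM (2.97 to 3.76), an FPKM 1.80-fold higher with a log2 change of 0.60 (0.42 to 0.78). This was the only member past the threshold in that comparison, and 98.7% of the 11369 genes had a lower change. If read as counting error alone, its intervals would correspond to about 240 (si-NC) and 285 (si-hnRNPL) fragments.

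**Figure D3:**
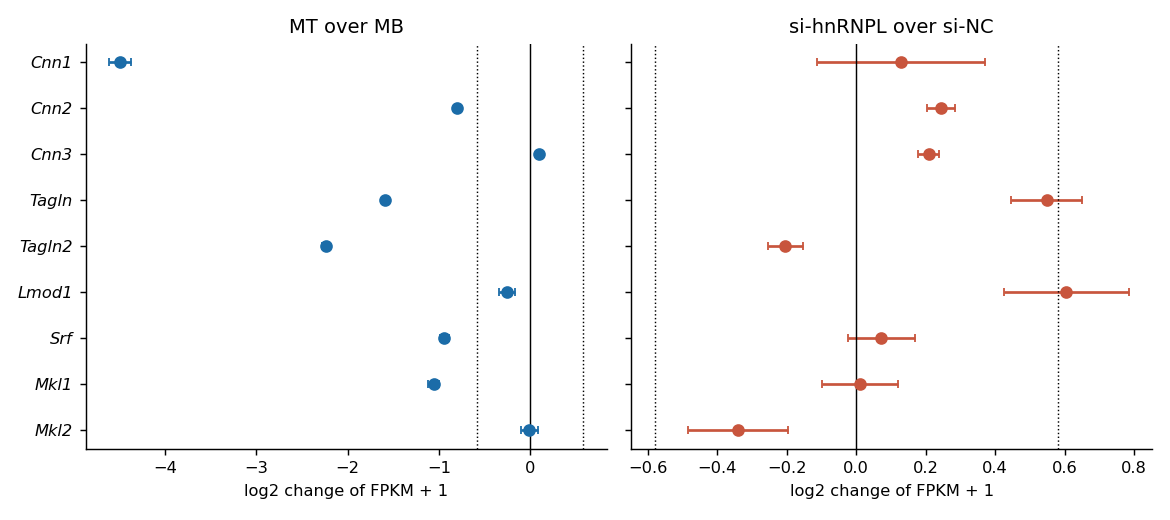
Log2 change of FPKM + 1 for each member in MT over MB (left) and si-hnRNPL over si-NC (right), with intervals combined from both libraries; dotted lines mark 0.58 in either direction and the axes of the panels differ. On the left 6 of 9 points lie below the lower line and Cnn1 is at -4.49; on the right Lmod1 at 0.60 is past the upper line and Tagln at 0.55 is next to it.

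The relatives of Lmod1 had another pattern. Leiomodins 2 and 3 (Lmod2 and Lmod3), the striated muscle forms that nucleate thin filaments, were near 0 in MB at 0.0935 and 0.0985 FPKM and had 21.2 and 32.9 FPKM in MT, log2 changes of 4.35 and 4.95. Tropomodulin 1 (Tmod1), which caps the pointed ends of sarcomeric filaments, went from 0.516 to 9.98 FPKM, a log2 change of 2.86. Tmod3, the widely expressed tropomodulin, went from 26.5 to 14.4 FPKM, a log2 change of -0.84. In si-hnRNPL over si-NC these 4 genes had log2 changes from -0.24 to 0.40, and Tagln3, Tmod2 and Tmod4 were under 1 FPKM in all 4 libraries.

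Srf (chromosome 17, 46683788 to 46693111, minus strand) had 28.1 FPKM (27.5 to 28.7) in MB and 14.2 FPKM (13.8 to 14.6) in MT. The log2 change was -0.94 (-0.99 to -0.89), or -0.72 relative to the median gene. In si-NC Srf had 14.2 FPKM (13.6 to 14.8) and in si-hnRNPL 15.0 FPKM (14.2 to 15.8), with a log2 change of 0.07 whose interval (-0.02 to 0.17) includes 0. The lincRNA Gm16736 is annotated over Srf on the other strand, as are Sgsm3 and a U4 snRNA at Mkl1 and Gm15738 at Mkl2, and reads of such pairs may be divided uncertainly.

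Mkl1 and Mkl2, the cofactors that carry the actin signal to SRF, differed from each other. Mkl1 (chromosome 15, 80842711 to 81021187, minus strand) had 16.8 FPKM (16.3 to 17.4) in MB and 7.57 FPKM (7.30 to 7.83) in MT, a log2 change of -1.06 (-1.12 to -0.99) and -0.83 relative to the median gene. Mkl2 (chromosome 16, 13256574 to 13417622, plus strand) had 7.18 FPKM (6.78 to 7.58) in MB and 7.12 FPKM (6.75 to 7.49) in MT, a log2 change of -0.01 (-0.11 to 0.09) that became 0.22 relative to the median gene. Mkl1 was 2.34 times Mkl2 (2.19 to 2.49) in MB, whereas the pair was near equal in MT, with a ratio of 1.06 (0.996 to 1.13).

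Between the siRNA libraries neither cofactor was past the threshold. Mkl1 had 23.5 FPKM (22.3 to 24.7) in si-NC and 23.7 FPKM (22.3 to 25.1) in si-hnRNPL, a log2 change of 0.01 (-0.10 to 0.12). Mkl2 had 6.24 FPKM (5.80 to 6.69) in si-NC and 4.72 FPKM (4.27 to 5.17) in si-hnRNPL, a log2 change of -0.34 (-0.49 to -0.20), which was -0.22 with transcript length and GC content taken out. In si-NC the ratio of Mkl1 to Mkl2 was 3.77 (3.43 to 4.10), whereas in si-hnRNPL it was 5.02 (4.46 to 5.58).

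The total RNA tables also list transcript units assembled from the reads, of which 43 overlapped Mkl1 and 23 overlapped Mkl2, with 0 in the other members. All 23 units in Mkl2 and 42 of the 43 in Mkl1 lay outside annotated exons of the gene. In Mkl1, where the gene itself was lower in MT, 38 of the 43 units (88.4%) had a higher FPKM in MT, and the median unit had 1.31 FPKM in MB and 1.60 FPKM in MT. In Mkl2, 21 of the 23 units (91.3%) had a higher FPKM in MT, with medians of 0.588 and 1.12 FPKM. Across the 20431 units inside named loci this share was 82.3%, and across the 2661 units inside loci that were lower in MT it was 53.5%. These shares count any difference in FPKM. Past the log2 threshold used for genes, 4 of the 43 units in Mkl1 and 6 of the 23 in Mkl2 were higher, and 0 were lower. Among the 20431 units 6152 were higher and 615 lower by that rule, and among the 2661 units 208 and 297. By the threshold the shares higher in Mkl1 and in Mkl2 were thus below that of all units inside named loci. The units of 1 gene share their primary transcript and are not independent, and the tables give no strand for them.

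Ordered by FPKM, the members in MB ran from Tagln2 over Tagln, Cnn2, Cnn3, Cnn1, Srf, Mkl1 and Mkl2 to Lmod1, and of neighbours in that order only Cnn2 and Cnn3 had overlapping intervals. In MT the order was Cnn3, Cnn2, Tagln, Tagln2, Srf, Mkl1, Mkl2, Lmod1 and Cnn1, with overlap only between Mkl1 and Mkl2. In si-NC the order was Cnn3, Tagln2, Cnn2, Tagln, Mkl1, Srf, Mkl2, Cnn1 and Lmod1, with overlap between Tagln2 and Cnn2. In si-hnRNPL Cnn2 and Tagln2 changed places, and the intervals of Mkl2 and Cnn1 and of Cnn1 and Lmod1 overlapped. Cnn1 was thus the member whose place differed most, in place 5 of 9 in MB and last in MT.

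**Figure D4:**
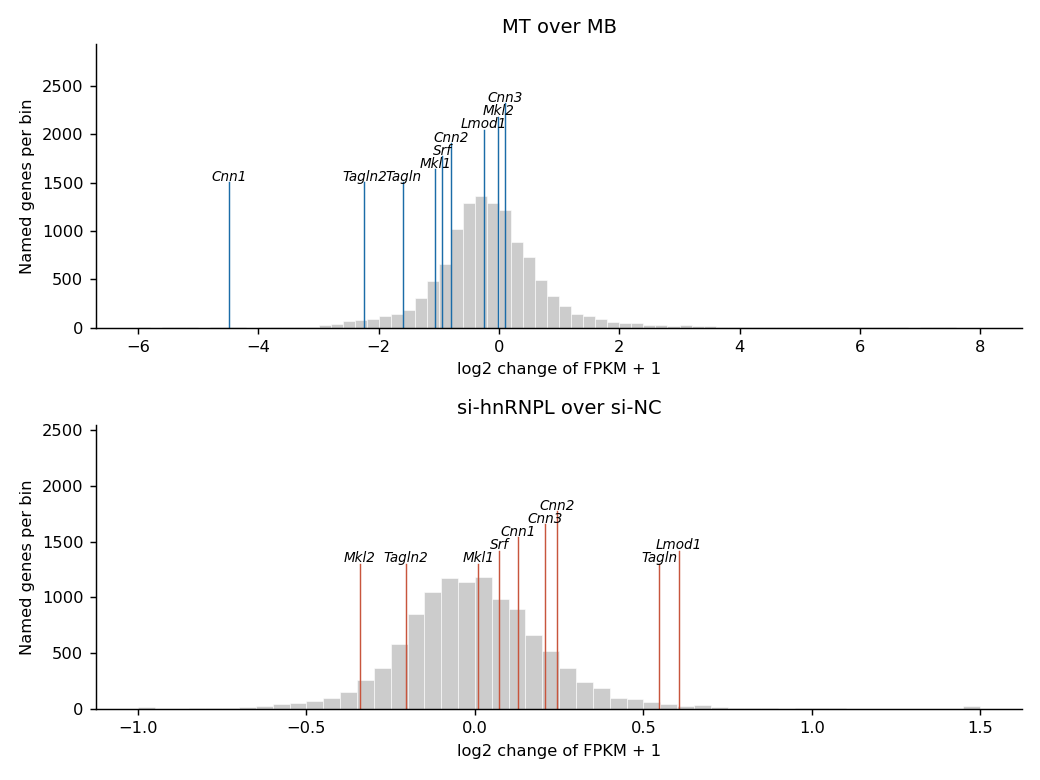
Distribution of log2 changes of FPKM + 1 over all named genes that reached 1 FPKM in either library of the pair (grey bars, number of genes per bin; bins of 0.2 in MT over MB and of 0.05 in si-hnRNPL over si-NC; genes past either end of an axis are counted in its end bin), with a line at each member. The members spread from -4.49 to 0.10 in MT over MB and from -0.34 to 0.60 in si-hnRNPL over si-NC.

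Other genes of the pathway were taken from lists of known SRF targets and regulators. Of 22 cytoskeletal targets of SRF and its MRTF cofactors, 13 were lower in MT and 0 higher, beside 28.5% and 15.4% of all genes. The other 9 were within the threshold, and the median log2 change of the 22 was -0.64. The lowest was Actg2, smooth muscle gamma actin, at 225 FPKM in MB and 39.8 FPKM in MT (log2 change -2.47), followed by Ctgf, a matrix-associated growth regulator, at -1.54. Tpm4 (a cytoskeletal tropomyosin) was at -1.24, Wdr1 (a cofilin partner in actin disassembly) at -1.23, Cyr61 (a matricellular protein) at -1.16 and Tgfb1i1 (a focal adhesion protein) at -1.11. Fhl1, Itga5, Csrp1 and Myl9 lay between -0.89 and -0.60. Relative to the median gene Itga5 (-0.43), Csrp1 (-0.40) and Myl9 (-0.38) were within the threshold. The cytoplasmic actin Actb had a log2 change of -1.01, its partner Actg1 went from 788 to 395 FPKM, and the actin cross-linker Flna had a change of -0.99, although reads may be divided uncertainly among the closely similar actin genes. Smooth muscle alpha actin (Acta2) differed from these, with 437 FPKM in MB, 367 FPKM in MT and a log2 change of -0.25. In si-hnRNPL over si-NC none of the 22 was past the threshold, the median was 0.10, and the highest was Acta2 at 0.46, from 549 to 753 FPKM.

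Immediate early targets of SRF, which use ternary complex factors, made up 8 genes with enough signal, Srf among them. In MT over MB 2 were lower (Ier2 at -0.81 and Srf) and 0 higher, beside 28.5% and 15.4% of all genes. The median was -0.13. After centring on the median gene or upper-quartile scaling 1 was lower and 1 was higher, Egr3 being at 0.60 relative to the median gene. The shares of all genes lower and higher were 18.6% and 22.7% after centring, and 16.0% and 26.1% after upper-quartile scaling. At a threshold of 1 none was lower, beside 13.3% of all genes. Egr1, an early growth response factor, had 8.25 FPKM in MB and 8.15 FPKM in MT. None of the 8 was past the threshold in si-hnRNPL over si-NC.

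Among SRF cofactors, myocardin (Myocd), the smooth and cardiac muscle coactivator, was at or under 0.0462 FPKM in all 4 libraries. Elk3, a ternary complex factor, had 29.2 FPKM in MB and 12.3 FPKM in MT, a log2 change of -1.18, while Elk1 and Elk4 had changes of 0.24 and 0.07. Of 16 genes that link actin to the MRTF cofactors, 4 were lower in MT (Diaph3, Limk1, Cfl1 and Pfn1) and 3 were higher (Cfl2, Abra and Scai), beside 28.5% and 15.4% of all genes. With upper-quartile scaling 3 were lower and 5 higher, beside 16.0% and 26.1% of all genes. The formin Diaph3 went from 50.5 to 9.40 FPKM (log2 change -2.31), the cofilin kinase Limk1 had a change of -0.96 and the actin monomer binder Pfn1 of -0.84, and the actin-severing cofilins went opposite ways, Cfl1 from 556 to 273 FPKM (-1.02) and the muscle form Cfl2 from 53.2 to 92.4 FPKM (0.79). Abra, a striated muscle activator of this pathway also called STARS, went from 0.211 to 4.63 FPKM (2.22), and Scai, a suppressor of MRTF, from 1.33 to 3.94 FPKM (1.09). None of the 16 was past the threshold in si-hnRNPL over si-NC.

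**Figure D5:**
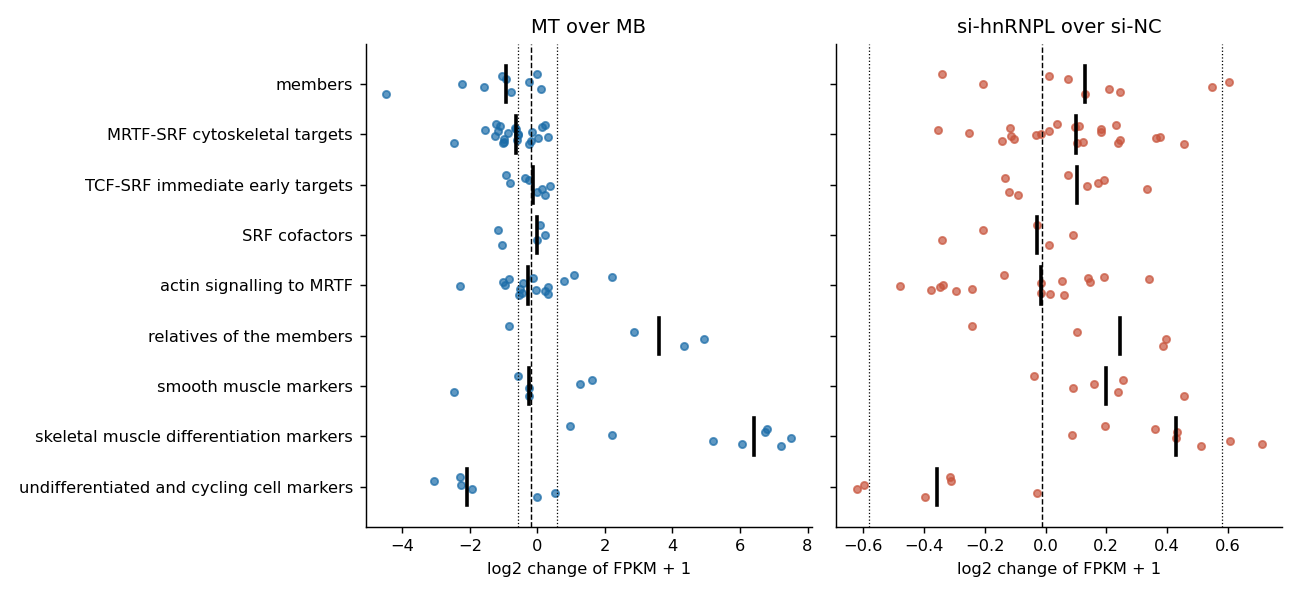
Log2 change of FPKM + 1 for each gene with at least 1 FPKM in either library of the pair, by list, in MT over MB (left) and si-hnRNPL over si-NC (right); thick ticks are list medians, the dashed line is the median of all named genes and dotted lines mark 0.58 in either direction. The axes of the panels differ; on the left the members have a median of -0.94 and the skeletal muscle markers of 6.40.

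Skeletal muscle markers were checked against the labels. All 8 skeletal muscle differentiation markers were higher in MT, with log2 changes from 0.98 (Des) and 2.22 (Mef2c) over 5.19 (Acta1), 6.06 (Ckm), 6.75 (Tmem8c, the fusion protein myomaker), 6.79 (Myh3) and 7.21 (Myog) to 7.52 (Tnnt3), and their summed level was 113 FPKM in MB and 1569 FPKM in MT. Of 6 markers of undifferentiated and cycling cells, the 4 cycling genes Mki67, Top2a, Ccnb1 and Cdk1 were lower, with log2 changes from -3.08 to -1.93, and the summed level of the 6 went from 425 to 94.8 FPKM. Among all genes 15.4% were higher and 28.5% lower in MT. The myoblast marker Myf5 had a log2 change of -0.01, and Pax7, a marker of muscle stem cells, had 4.85 FPKM in MB and 7.42 FPKM in MT, a change of 0.53 that is 0.75 relative to the median gene and so past the threshold there. In the siRNA libraries the skeletal markers summed to 2402 FPKM in si-NC and 3348 FPKM in si-hnRNPL, with 2 of 8 higher (Ckm at 0.71 and Acta1 at 0.61), and the 6 markers of undifferentiated and cycling cells to 202 and 147 FPKM, with 2 of 6 lower (Mki67 at -0.62 and Top2a at -0.60). Among all genes 1.44% were higher and 0.888% lower in si-hnRNPL. The skeletal markers and the 4 cycling genes thus moved with the comparisons in which the members are described. Myf5 and Pax7 were within the threshold in both as deposited. Between the siRNA libraries 6 of the 8 skeletal markers and 4 of the 6 other markers were within the threshold. The part of these markers in the members' values was not tested. In bulk RNA, fewer cells of a type and less RNA per cell cannot be told apart.

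Smooth muscle markers did not move as a group in MT over MB. Myh11, the smooth muscle myosin heavy chain, was at or under 0.0994 FPKM in every library, and Myocd was near 0 as given above. Of the 6 other markers, Actg2 and, at the edge of the threshold, Cald1 (-0.58) were lower in MT, Mylk (1.26) and Synpo2 (1.62) were higher, and Acta2 and Smtn were within the threshold. Among all genes 28.5% were lower and 15.4% higher. Relative to the median gene Cald1 was at -0.36, within the threshold. In si-hnRNPL over si-NC none of these 6 was past the threshold and 1 was below 0. Their median there was 0.20, against -0.01 for all genes. The summed level of the 8 markers was 846 FPKM in MB and 542 FPKM in MT, and 861 FPKM in si-NC and 1075 FPKM in si-hnRNPL. Acta2 made up most of the polyA sums, at 549 and 753 FPKM. The endothelial markers Pecam1 and Cdh5, the leukocyte marker Ptprc and the fat markers Adipoq and Plin1 reached at most 0.0446 FPKM. The fibroblast marker Thy1 stayed under that level too. Pdgfra, the other fibroblast marker, had 2.14 FPKM in MB and 3.38 FPKM in MT. Its log2 change of 0.48 was 0.70 relative to the median gene and so past the threshold there. In si-hnRNPL over si-NC the change of Pdgfra was above 0 and within the threshold. The macrophage marker Cd68 had 1.13 FPKM in MB, 0.774 FPKM in MT, 0.935 FPKM in si-NC and 0.396 FPKM in si-hnRNPL. The 8 markers of fibroblast, endothelial, immune and fat cells together summed to between 3.30 and 5.36 FPKM in the 4 libraries. Pdgfra made up most of each of these sums.

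The genes most like 3 of the members were taken as those with the smallest distance in the plane of the MT over MB and the si-hnRNPL over si-NC log2 changes, among 10703 genes present in both pairs. For Cnn1 they included Plaur, Fosl1, Prl2c2 and Aurka, at distances from 0.55 to 1.11; Prl2c2 shares reads with close paralogs and is uncertain. For Tagln they were Hmox1, Lsm4, Hist1h2bc, Gper1 and Ier5l, at distances from 0.05 to 0.16. For Srf they were Acy1, Nol12, Fancl, Trip6 and Emc8, at distances from 0.02 to 0.03. The genes named lay farther from Cnn1 than from Tagln or Srf. This follows from the place of Cnn1, number 15 from the lowest MT over MB change, where few genes lie. Likeness over 4 libraries is a description only.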

How the data were processed

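Total RNA (MB, MT) and polyA RNA (si-hnRNPL, si-NC) of C2C12 were sequenced, 1 library each. The authors mapped reads to mm9 with TopHat2 and deposited FPKM values estimated with Cufflinks, each with a 95% interval, per the labels and file headers. If read as counting error alone, the interval widths would correspond to 59960176 (MB), 54442423 (MT), 21341051 (si-NC) and 14592480 (si-hnRNPL) fragments. The number implied per entry was within 0.05 of a whole number for 91.5% (MB), 91.3% (MT), 45.1% (si-NC) and 43.8% (si-hnRNPL). The polyA numbers can therefore not be taken as sequencing depths. Values of total and polyA libraries were not tested against each other.

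Log2 ratios of FPKM + 1 were computed in Python 3.11.15 with numpy 2.4.6 and pandas 2.3.3, and intervals by adding both half-widths on that scale in quadrature; the calculation was tested on simulated data. The background was every named gene with an FPKM of at least 1 in either library of a pair. Named in the text are the members, list genes past 0.58 or needed for a level, and the 5 nearest genes of Cnn1, Tagln and Srf. A gene that this rule selects is not reported here. The members, lists and rules were chosen with earlier results of these data known. Older symbols were matched through RefSeq (Diap1, Diap2 and Diap3 for Diaph1, Diaph2 and Diaph3 in total RNA, Mymk for Tmem8c in polyA). Transcript length and GC content came from GENCODE for mm9, whose gene start equals that of the tables for 5 members. Alternatives were other pseudocounts, scalings, thresholds, a rule on the interval, no filter on FPKM and, for the siRNA libraries, a correction for transcript length and GC content.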

Additional observations from a re-analysis of the deposited data

How the results depend on the processing

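Under pseudocounts of 0.1 and 0.01, centring on the median gene and upper-quartile scaling, the 6 members lower in MT kept their direction, with Cnn1 between -5.25 and -4.26, Tagln2 between -2.26 and -1.88, Tagln between -1.60 and -1.24 and Srf between -0.99 and -0.60. Cnn2 went to -0.57 and -0.44 with the scalings, within the threshold, which left 5 members lower in MT. At a threshold of 1, 4 members were lower in MT, beside 13.3% of all genes. Mkl2 turned positive with both scalings, up to 0.31, and Lmod1 with upper-quartile scaling only. The deposited FPKM summed to 650275 in MB and 337279 in MT, and a scaling to equal sums was not tried. Scaling also moved the background in MT over MB: 64.9% of calls were lower as deposited, 45.1% after centring on the median and 38.0% after upper-quartile scaling. In si-hnRNPL over si-NC the share of genes higher was 2.65% and that lower 1.97% at a pseudocount of 0.01, against 0.416% and 0.538% with transcript length and GC content taken out. Of the cytoskeletal SRF targets, 10 were lower in MT after centring on the median and 9 after upper-quartile scaling. The shares of all genes were 18.6% and 16.0%. With upper-quartile scaling 1 of these targets was higher, beside 26.1% of all genes, and 7 were lower at a threshold of 1, beside 13.3%. At that threshold 0 members were higher in si-hnRNPL, beside 0.334% of all genes. With transcript length and GC content taken out, Tagln went from 0.55 to 0.44 and Tagln2 from -0.20 to -0.34, Mkl2 went from -0.34 to -0.22, Lmod1 stayed past 0.58, at 0.59, and Srf and Mkl1 went to -0.02 and -0.03. No paired analysis was possible because each condition has 1 library. The deposited intervals hold no variation between cultures. Those of Cnn1 and Lmod1 in the polyA libraries would correspond to 154 to 285 fragments if read as counting error alone.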
